A study of Homo sapiens with 57 samples.

Results

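RNA polymerase II, the enzyme that transcribes messenger RNA, is built from many subunits, and 8 of the genes that encode them were followed here in mRNA sequencing of HCT116 cells. Each gene is represented by 1 Ensembl transcript, taken from a fixed list of identifiers that pairs them with the symbols POLR2B, POLR2C, POLR2D, POLR2G, POLR2I, POLR2J, POLR2K and POLR2L. All 8 were found among the 228715 transcripts listed, and all 8 passed the filter on low counts, which left 78478 transcripts for testing. The list is by gene family and uses no measured value, but it was drawn up with earlier results of these data known.

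The libraries form 3 groups of 3, named TE7, TA7 and WT after the form of the CTR1 region of Spt5. HCT116 is a human colorectal carcinoma line. In all 3 groups the Spt5 gene carried an HA-dhfr fusion, in which dhfr acts as a degron that trimethoprim stabilises, and the labels give growth without trimethoprim. Every group also expressed Spt5 residues 1 to 820 with an Avi tag from the vector pCW57, and doxycycline (2 ug/ml, 24 h) switched it on under hygromycin, G418 and blasticidin. The labels differ between the groups only in the CTR1 form of that fragment, TE7, TA7 or WT. Each form was in cells of its own, so the form and any other difference between the cell lines cannot be told apart. Whether the replicates are separate cultures is not in the labels, and the p-values thus reflect only the spread among these libraries, which may be technical. The series holds 57 samples, of which the 48 with other measurements are not analysed here.

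In the polymerase, RPB2 (POLR2B) forms the active centre together with the largest subunit. RPB3 (POLR2C) and RPB11 (POLR2J) pair with each other and, with the small proteins RPB10 (POLR2L) and RPB12 (POLR2K), hold the 2 large subunits together during assembly. RPB10 and RPB12 are also parts of RNA polymerases I and III. RPB4 (POLR2D) and RPB7 (POLR2G) form a stalk that can leave the yeast core enzyme, and RPB9 (POLR2I) lies at the jaw and contributes to start site choice and fidelity in yeast. Spt5 is an elongation factor that binds the polymerase itself.

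The libraries held 68578355 to 73794335 estimated reads in TE7, 65723341 to 90805283 in TA7 and 64364751 to 67628672 in WT. WT replicate 1 stood apart, with the lowest scaling factor (0.92, against 0.971 to 1.04 elsewhere) and reads on 87229 transcripts, against 95401 to 99993 in the other libraries. The fitted changes in TE7 against WT, and those in TA7 that it moved most, are therefore also given without it. The 8 subunit transcripts had 745 to 14189 estimated reads per library, POLR2I having the fewest. None of these estimates was whole to within 0.001 in any library, as happens where reads are divided among transcripts that share sequence. Among all transcripts with reads, 12.7% to 13.8% per library were whole in this way. A gene table of another build names related copies or pseudogenes for 5 of the genes: POLR2J (POLR2J2, POLR2J3, POLR2J4), POLR2K (POLR2KP1, POLR2KP2), POLR2L (POLR2LP1), POLR2C (POLR2CP1) and POLR2D (POLR2DP1, POLR2DP2). Reads of these 5 may have been divided with their copies, and their values are uncertain for that reason. The estimates of POLR2B, POLR2G and POLR2I, for which no copy is named, were not whole either. With which transcripts the reads were divided was not tested. Markers of HCT116 identity were not analysed here, because the tables do not pair identifiers with gene names. In bulk RNA, a change in the share of cells that express a gene and a change in its RNA per cell cannot be told apart. The levels are relative to each library's total, so a change in total mRNA per cell would not be seen.

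POLR2L was the subunit transcript with the clearest difference. Its fitted fold in TE7 was 2.01 over WT and 1.95 over TA7. Of 9 fits that each left out 1 library, it passed against WT in all 9 and against TA7 in only 3. POLR2K was the only other transcript that passed the test between TE7 and WT, with a fitted fold of 1.49. This call was lost in 8 of 9 fits without 1 library. The transcripts of the large subunit POLR2B and of the stalk subunit POLR2D, the longest of the 8, had fitted log2 changes of -0.07 and -0.10 between TE7 and WT, and neither passed the test. No subunit transcript passed the test between TA7 and WT.

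**Figure D1:**
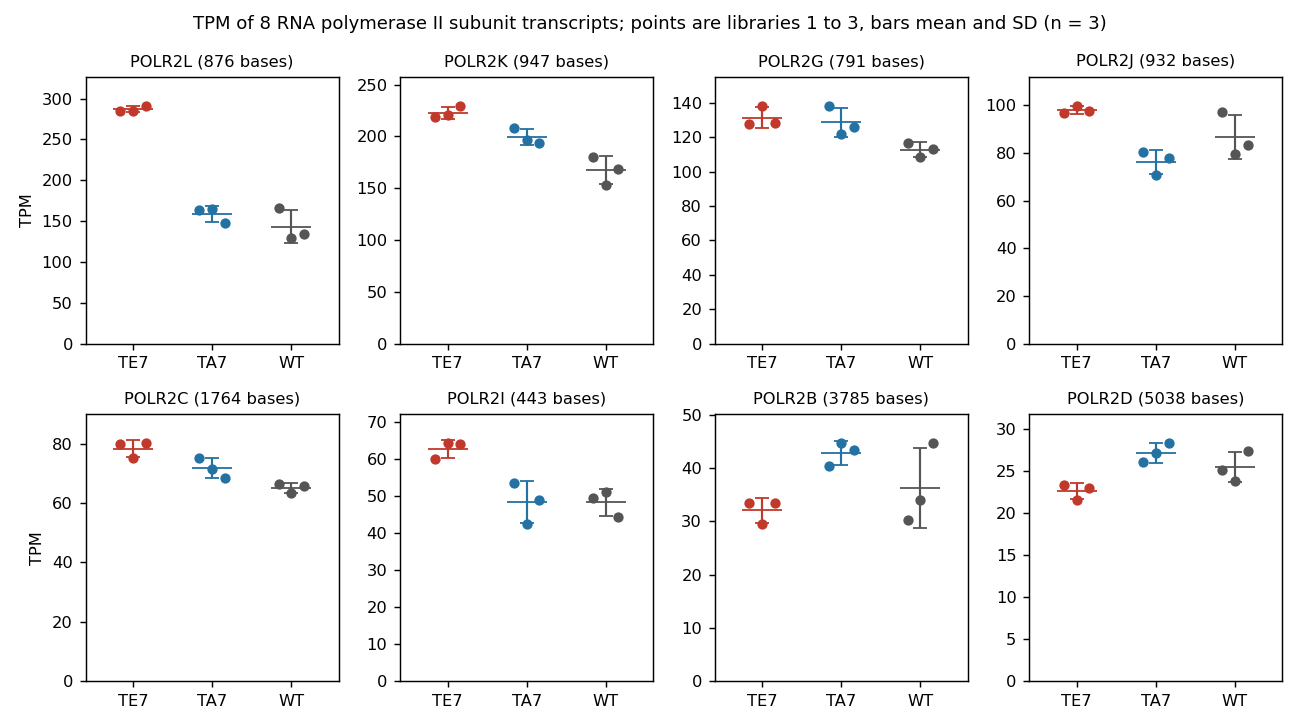
TPM (a level per effective length, scaled to the same total in each library) of the 8 subunit transcripts in each library. Groups run TE7, TA7, WT, and points are libraries 1 to 3 with mean and SD. POLR2L lies at 284 to 291 TPM in TE7 and at 166 or less in every TA7 and WT library.

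Levels are first given in TPM, which is scaled per effective length and so allows genes to be compared. The share of all transcripts whose groups do not overlap in TPM was not computed. Nothing particular to these genes is therefore read from such gaps. POLR2L (ENST00000322028.5_3), at 876 bases, had 284, 285 and 291 TPM in TE7, 164, 165 and 147 TPM in TA7, and 166, 129 and 134 TPM in WT. The TE7 libraries lay together and above all others, while TA7 and WT overlapped. POLR2K (ENST00000353107.8_2), at 947 bases, had 219, 220 and 230 TPM in TE7, 208, 197 and 193 TPM in TA7, and 181, 153 and 169 TPM in WT. In TPM the 3 groups followed one another without overlap, TE7 highest and WT lowest, whereas in CPM, counts as a share of the library's total scaled for composition, TA7 and WT overlapped.

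POLR2C (ENST00000219252.10_2), which encodes the assembly subunit RPB3, had 79.9, 75.2 and 80.3 TPM in TE7, 75.3, 71.7 and 68.7 TPM in TA7, and 66.4, 63.4 and 65.7 TPM in WT. Its partner POLR2J (ENST00000292614.9_2) had 96.5, 99.8 and 97.5 TPM in TE7, 80.2, 70.8 and 77.7 TPM in TA7, and 97.3, 79.7 and 83.1 TPM in WT. POLR2C was above WT in every TE7 library, whereas POLR2J overlapped between TE7 and WT because of WT replicate 1. The lowest POLR2J values were in TA7, with 1 TA7 library inside the WT range.

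POLR2G (ENST00000301788.12_2), the stalk subunit RPB7, had 128, 138 and 128 TPM in TE7, 138, 122 and 126 TPM in TA7, and 117, 108 and 113 TPM in WT. POLR2D (ENST00000272645.9_3), its stalk partner RPB4, had 23.3, 21.6 and 22.9 TPM in TE7, 25.98, 27.1 and 28.3 TPM in TA7, and 25.05, 23.8 and 27.3 TPM in WT. On this scale the partners lay on opposite sides of WT in TE7, POLR2G above it and POLR2D below it, without overlap. In CPM both overlapped with WT, and neither passed the edgeR test between TE7 and WT with all libraries.

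POLR2I (ENST00000221859.9_3), the transcript of RPB9 and the shortest at 443 bases, had 59.95, 64.3 and 64.04 TPM in TE7, 53.6, 42.5 and 48.9 TPM in TA7, and 49.4, 51.1 and 44.3 TPM in WT. POLR2B (ENST00000314595.6_3) had 33.4, 29.4 and 33.5 TPM in TE7, 40.4, 44.8 and 43.5 TPM in TA7, and 30.2, 34.04 and 44.7 TPM in WT. POLR2I was highest in the TE7 libraries. POLR2B was lower in each TE7 library than in each TA7 library, and its WT libraries overlapped with both.

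The order of the levels was nearly the same in every library. POLR2G took place 3 and POLR2D place 8 in all 9 libraries. In TPM the top 2 places changed. POLR2L was first and POLR2K second in the 3 TE7 libraries, with the reverse order in the 6 TA7 and WT libraries. In CPM, which is not scaled by length, POLR2L was above POLR2K in all 9 libraries. In WT the TPM ranges of POLR2K and POLR2L overlapped, as did those of POLR2I and POLR2B. In TA7 POLR2J overlapped with POLR2C and POLR2I with POLR2B. In TE7 no neighbours in the order overlapped.

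Upstream sequences are shown for 4 of the 8 genes. Those of POLR2G, POLR2I, POLR2J and POLR2K are not shown, although POLR2K was the other transcript called between TE7 and WT. The sequences shown are of POLR2L, whose transcript differed most, and of POLR2B, POLR2C and POLR2D, whose transcripts did not pass in that comparison. Each is the 250 bases before the annotated start, from RefSeq on GRCh38.p14, written 5′ to 3′ on the strand of the gene, with motif matches in capitals. The motifs searched on both strands were the GC box GGGCGG, the ETS core CCGGAAG, the CCAAT box and the TATA box TATAAA. The sequences lie at chr11:842530-842779 on the minus strand for POLR2L, chr16:57462429-57462678 on the plus strand for POLR2C, chr4:56978646-56978895 on the plus strand for POLR2B and chr2:127858156-127858405 on the minus strand for POLR2D.
POLR2L: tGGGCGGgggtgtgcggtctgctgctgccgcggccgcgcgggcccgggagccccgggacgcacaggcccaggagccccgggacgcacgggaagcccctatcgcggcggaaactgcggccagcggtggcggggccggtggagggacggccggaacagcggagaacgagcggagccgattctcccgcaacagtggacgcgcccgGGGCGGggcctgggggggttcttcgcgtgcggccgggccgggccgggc
POLR2C: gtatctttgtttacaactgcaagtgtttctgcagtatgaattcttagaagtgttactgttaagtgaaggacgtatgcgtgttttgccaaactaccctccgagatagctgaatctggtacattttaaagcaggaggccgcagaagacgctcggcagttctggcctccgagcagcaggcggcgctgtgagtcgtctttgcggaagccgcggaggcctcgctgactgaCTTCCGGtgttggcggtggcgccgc
POLR2B: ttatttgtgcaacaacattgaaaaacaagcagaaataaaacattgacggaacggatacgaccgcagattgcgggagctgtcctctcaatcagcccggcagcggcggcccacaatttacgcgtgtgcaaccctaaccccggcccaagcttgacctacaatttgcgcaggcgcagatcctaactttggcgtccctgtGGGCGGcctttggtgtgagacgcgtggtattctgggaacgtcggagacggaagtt
POLR2D: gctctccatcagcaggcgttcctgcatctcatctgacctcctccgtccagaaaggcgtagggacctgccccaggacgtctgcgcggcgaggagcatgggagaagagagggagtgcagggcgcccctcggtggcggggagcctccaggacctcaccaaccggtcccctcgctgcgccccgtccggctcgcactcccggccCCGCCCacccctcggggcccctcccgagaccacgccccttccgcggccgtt
The POLR2L window held 2 matches to the GC box, the POLR2B and POLR2D windows 1 each, and the POLR2C window none. POLR2C had the single match to the ETS core. A GC box match was present in 42.6% and an ETS core match in 8.52% of 35097 promoter windows of the same length. The CCAAT and TATA letters, found in 32.0% and 10.7% of all windows, were not in these 4. The share of G and C was 79.2% for POLR2L, 53.6% for POLR2C, 54.0% for POLR2B and 72.0% for POLR2D, against a median of 58.0% over all windows. These are descriptions of letters in a window, and no binding was measured.

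The first comparison asks whether mRNA levels differ between cells with the TE7 and the WT form. Of the 8 subunit transcripts, 2 differed, POLR2K and POLR2L, both higher in TE7, by edgeR's quasi-likelihood test with Benjamini-Hochberg adjustment over all 78478 transcripts and a threshold of 0.05 on the adjusted p. Of all transcripts in the test 9.40% passed, 4.59% as higher and 4.81% as lower in TE7. Transcripts of low abundance are rarely called, and among the 19820 of at least 5 CPM, a class that holds all 8, 25.0% differed and 12.2% were higher. The count of 2 in 8 is near the share of that class called in either direction and above the share called as higher, and nothing particular to the subunit genes is read from it.

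POLR2L had 187, 198 and 194 CPM in TE7, against 121, 84.1 and 82.8 CPM in WT. Every TE7 library was above every WT library, and WT replicate 1 was the nearest. The log2 fold change was 1.00 with a standard error of 0.14 and an edgeR adjusted p of 0.00666. Without WT replicate 1 it was 1.21, with adjusted p = 0.000399 in edgeR. In 9 edgeR fits that each left out 1 library it lay between 0.91 and 1.21 and passed each time, and it passed in all 11 other settings.

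POLR2K had 118, 112 and 107 CPM in TE7, against 92.8, 65.6 and 67.1 CPM in WT. The groups did not overlap, and again WT replicate 1 was the nearest to TE7. The log2 fold change was 0.58 with a standard error of 0.14 and an edgeR adjusted p of 0.0396. This call was lost in 8 of the 9 edgeR fits without 1 library, with adjusted p up to 0.128, and held without WT replicate 1, where the change was 0.76 and adjusted p = 0.0027. It was also lost in edgeR without a filter (adjusted p = 0.056) and in a fit of only TE7 and WT (0.0796). The estimated effective length of this transcript also differed between libraries, at 530 to 610 bases in TE7 and 502 to 541 bases in WT with overlap, and its part in the CPM difference was not tested. With effective length as an offset the change was 0.46 on the log2 scale and passed in edgeR, with adjusted p = 0.0382.

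The other 6 transcripts did not pass. POLR2C had 114, 111 and 114 CPM in TE7, against 105, 88.2 and 86.1 CPM in WT, with no overlap. Its log2 change of 0.28 (95% interval 0.09 to 0.48) had an edgeR adjusted p of 0.0729. It passed in DESeq2 (adjusted p = 0.0115), where 20.2% of all transcripts did, in limma on log2(TPM + 1), where 24.4% did, with a filter at 1 CPM, with library size alone and without WT replicate 1. POLR2I had a log2 change of 0.37 (0.05 to 0.68) with adjusted p = 0.145, and POLR2G one of 0.22 (-0.02 to 0.46) with adjusted p = 0.229, both by edgeR; POLR2G and POLR2I passed in limma. POLR2J had a log2 change of 0.18 (-0.13 to 0.49) and passed only where WT replicate 1 was left out, at 0.36 and an edgeR adjusted p of 0.0268. POLR2B and POLR2D had log2 changes of -0.07 (-0.28 to 0.13) and -0.10 (-0.27 to 0.06). A p above the threshold does not show equal levels.

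Direction was uneven within the list. Of the 8 fitted changes between TE7 and WT, 6 were above 0, and the median was 0.25 on the log2 scale. The median over the 19820 transcripts of at least 5 CPM was 0.04, with 53.1% above 0. In CPM, 4 transcripts (POLR2C, POLR2I, POLR2K and POLR2L) were higher in every TE7 library than in every WT library, and 0 were lower. Over all transcripts tested, 16.8% were higher and 16.1% lower in this way, and among those of at least 5 CPM 27.4% and 24.6%.

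**Figure D2:**
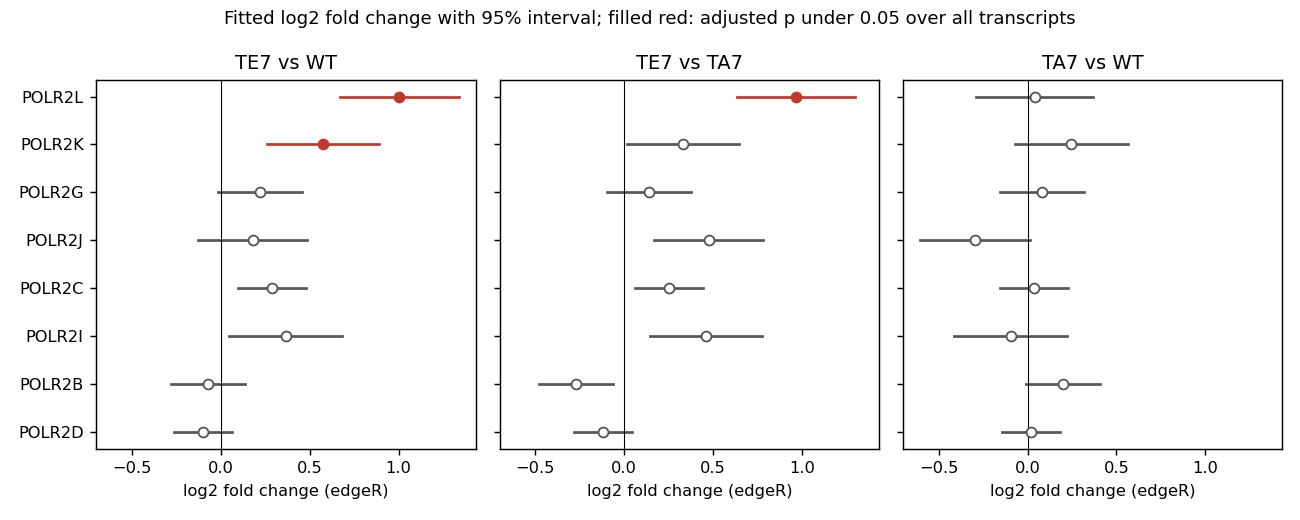
Fitted log2 fold changes of the 8 transcripts with 95% intervals from edgeR, in panels for TE7 vs WT, TE7 vs TA7 and TA7 vs WT. POLR2L lies near 1 in the panels with TE7 and at 0.04 between TA7 and WT. Filled red points have an adjusted p under 0.05.

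The 6 transcripts with changes above 0 have 443 to 1764 bases, and the 2 below 0 have 3785 and 5038 bases. Among all transcripts of at least 5 CPM, the median change was between 0.14 and 0.20 in the 3 length classes under 2000 bases and lower in each longer class, down to -0.43 at 8000 bases or more. Each subunit transcript was therefore set beside its own class. The 2367 transcripts of 500 to under 1000 bases had a median log2 change of 0.17 between TE7 and WT. POLR2J at 0.18 and POLR2G at 0.22 were near this median. POLR2K lay above 83.1% and POLR2L above 94.9% of the transcripts of the class. POLR2C, at 0.28, was beside a median of 0.20 for 4191 transcripts of 1000 to under 2000 bases, and POLR2I, at 0.37, beside a median of 0.14 for 249 under 500 bases. POLR2B was below its class median of 0.09 and above 36.7% of its 7068 transcripts. POLR2D, at -0.10, was beside a median of -0.16 for 4875 transcripts of 4000 to under 8000 bases. The share of length in these changes was not tested.

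**Figure D3:**
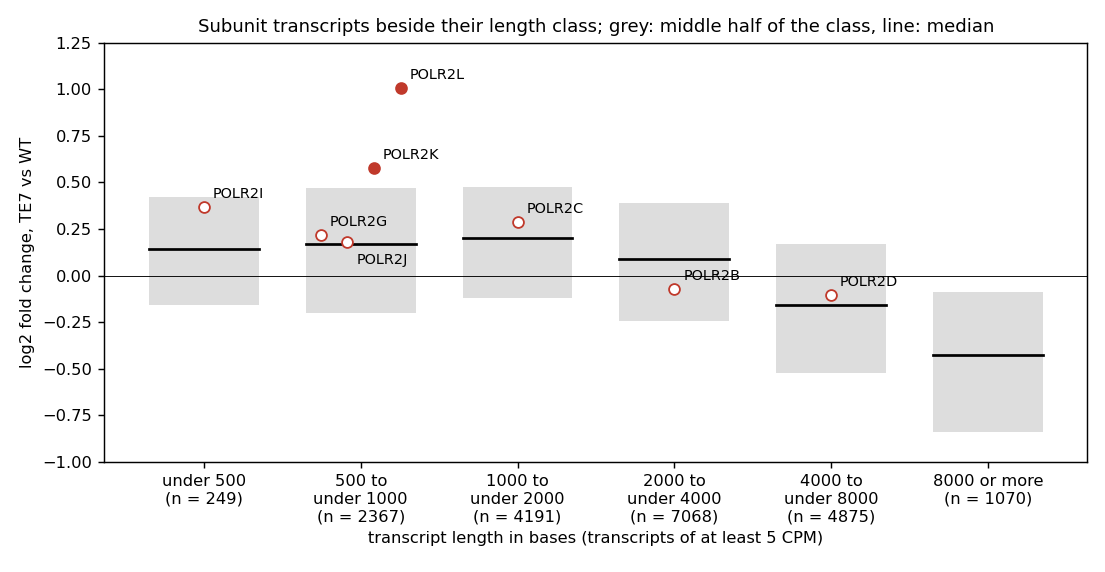
Log2 fold change between TE7 and WT of the 8 transcripts (red circles, filled where adjusted p is under 0.05) by length class. Grey bars run from the lower to the upper quartile of all transcripts of at least 5 CPM, and black lines are medians. Only POLR2L, at 1.00, and POLR2K, at 0.58, lie above the grey bar of their class.

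TE7 was next compared directly with TA7, a contrast that equals the gap between their changes relative to WT. By edgeR 1 of the 8 transcripts passed, POLR2L, which was higher in TE7. Of all transcripts in the test 3.07% passed, 1.29% as higher and 1.78% as lower in TE7, and among those of at least 5 CPM 9.63% differed and 4.05% were higher. POLR2L had 187, 198 and 194 CPM in TE7, against 103, 101 and 92.0 CPM in TA7. All TE7 libraries were above all TA7 libraries. The log2 fold change was 0.97 with a standard error of 0.14 and an edgeR adjusted p of 0.0193. Leaving out any of the 6 TE7 and TA7 libraries gave changes of 0.92 to 1.00 and adjusted p of 0.0533 to 0.0951, so the call ended in each of these fits. Without WT replicate 1, a library of neither group that enters the fit through the shared spread, filter and scaling, 4 transcripts (POLR2C, POLR2J, POLR2K and POLR2L) passed in edgeR, as did 5.63% of all transcripts. With all libraries, the change of POLR2L lay above 96.7% of transcripts of 500 to under 1000 bases, whose median was 0.23.

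For the others, the CPM of 4 more transcripts (POLR2C, POLR2I, POLR2J and POLR2K) was higher in each TE7 library than in each TA7 library, and that of POLR2B and POLR2D was lower. With POLR2L that makes 5 higher and 2 lower, where 15.8% and 15.6% of all transcripts tested, and 29.3% and 22.6% of those of at least 5 CPM, were separated in these directions. POLR2J had the next largest log2 change, 0.47 (95% interval 0.17 to 0.78), with an edgeR adjusted p of 0.105. POLR2I had a change of 0.46 (0.14 to 0.78) with adjusted p = 0.119 in edgeR. POLR2B, at 100.1, 90.98 and 98.7 CPM in TE7 against 114, 121 and 116 CPM in TA7, had a change of -0.27 (-0.48 to -0.06) with an edgeR adjusted p of 0.149. In DESeq2, POLR2B, POLR2C, POLR2I and POLR2J passed as well, POLR2B as lower, and 13.4% of all transcripts tested did. POLR2K, called against WT, had a change of 0.33 (0.01 to 0.64) against TA7, with an edgeR adjusted p of 0.242.

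The third comparison set TA7 against WT. None of the 8 transcripts passed in edgeR, and 0 passed in DESeq2 or limma. Over all transcripts 0.0612% differed, with 0.0408% higher and 0.0204% lower in TA7, and among those of at least 5 CPM 0.151% differed and 0.0959% were higher. The median log2 change of the 8 was 0.04, against -0.0045 over transcripts of at least 5 CPM. POLR2L, called in TE7, had a log2 change of 0.04 in TA7 (95% interval -0.29 to 0.37, edgeR adjusted p = 1). The interval does not reach the log2 change of 1.00 fitted between TE7 and WT, but it reflects only the spread among these libraries. The POLR2L estimate was 0.25 without WT replicate 1 and -0.06 without WT replicate 3.

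POLR2J had the largest fitted change between TA7 and WT, -0.30 (-0.60 to 0.01), with an edgeR adjusted p of 0.664. It had 53.4, 45.98 and 51.05 CPM in TA7, against 75.7, 55.1 and 53.9 CPM in WT. In CPM the groups did not overlap, POLR2J being lower in TA7; 6.61% of all transcripts tested, and 10.0% of those of at least 5 CPM, were lower in TA7 in this way. In CPM none of the 8 was higher in TA7 without overlap, against 7.48% and 10.2%, while in TPM POLR2C, POLR2G and POLR2K were. The share of all transcripts separated in TPM was not computed, so nothing particular to these genes is read from it. The median change over all transcripts in the fit was 0.0642 in limma on log2(TPM + 1) and 0.0005 in edgeR. Without WT replicate 1 the POLR2J change was -0.11. POLR2K had a change of 0.25 (-0.07 to 0.56), which was 0.44 without WT replicate 1 and 0.16 without WT replicate 2. POLR2B had one of 0.20 (-0.01 to 0.41), which was 0.31 without WT replicate 3. TE7 and TA7 are compared with the same WT libraries, so their differences from WT are not independent.

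Ratios within a library do not depend on how libraries are scaled. The ratio of POLR2L to POLR2K in TPM, both of subunits shared with polymerases I and III, was 1.2995, 1.29 and 1.27 in TE7, 0.786, 0.839 and 0.763 in TA7, and 0.919, 0.842 and 0.797 in WT. Thus in TPM POLR2L exceeded POLR2K in each TE7 library and in no other. In CPM, which is not scaled by length, POLR2L was the higher in every library. The effective length of POLR2K was 53.0% to 64.4% of its length, against 85.2% to 89.3% for POLR2L. The part of effective length in the TPM order was not tested. POLR2L to POLR2C, its neighbour in the assembly module, averaged 3.66 ± 0.118 in TE7, 2.21 ± 0.0821 in TA7 and 2.19 ± 0.265 in WT (SD, n = 3). POLR2L to POLR2B averaged 8.97 ± 0.622 in TE7, 3.71 ± 0.33 in TA7 and 4.09 ± 1.27 in WT (SD, n = 3). For both ratios each TE7 library lay above all TA7 and WT libraries.

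Between the partners RPB11 and RPB3, the ratio of POLR2J to POLR2C was 1.21, 1.33 and 1.21 in TE7, 1.07, 0.988 and 1.13 in TA7, and 1.47, 1.26 and 1.26 in WT. TA7 was below every other library, and TE7 overlapped with WT. Between the stalk partners, POLR2G to POLR2D was 5.47, 6.42 and 5.59 in TE7, 5.315, 4.50 and 4.45 in TA7, and 4.66, 4.56 and 4.155 in WT. The TE7 values were all above the others. POLR2G and POLR2D differ in length, at 791 and 5038 bases, and the median changes of their length classes between TE7 and WT were 0.17 and -0.16.

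**Figure D4:**
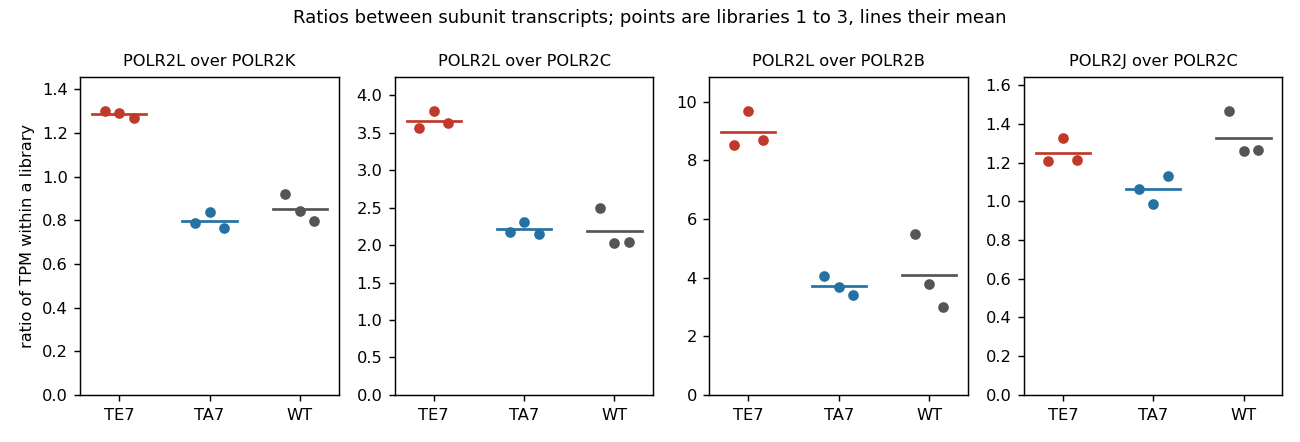
Ratios of TPM between subunit transcripts within each library, for TE7, TA7 and WT, with lines at the means of 3. POLR2L over POLR2K is 1.27 to 1.2995 in TE7 and at most 0.919 in the other 6 libraries. POLR2J over POLR2C is lowest in TA7.

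Summed over the 8 transcripts, the level was 924, 934 and 948 TPM in TE7, 786, 740 and 734 TPM in TA7, and 732, 642 and 682 TPM in WT. The ratio of means was 1.365 for TE7 over WT in TPM and 1.27 in CPM. The share of POLR2L in the sum was 30.7% ± 0.152 in TE7, 21.1% ± 1.11 in TA7 and 20.8% ± 1.62 in WT (SD, n = 3). Without POLR2L and POLR2K the sum was 425 ± 4.22 TPM in TE7, 395 ± 17.6 TPM in TA7 and 375 ± 12.8 TPM in WT (SD, n = 3). The shares add up to the whole, so a larger share of POLR2L leaves less for the others, and those of POLR2B, POLR2C, POLR2D, POLR2G and POLR2J were lower in every TE7 library than in every WT library. Between TA7 and WT, the share of POLR2J was 10.1% ± 0.524 in TA7 and 12.6% ± 0.588 in WT, and that of POLR2K was 26.5% ± 0.126 in TA7 and 24.4% ± 0.509 in WT, both without overlap (SD, n = 3).

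WT replicate 1 moved the comparison with TE7 for most of the list. It had the highest WT value in CPM for 7 of the 8 transcripts, POLR2B being the exception. For POLR2J it had 75.7 CPM, above the TE7 libraries at 67.6 to 73.0 CPM. Without it, the changes of the 6 shorter transcripts were all larger, with POLR2C at 0.38, POLR2G at 0.33 and POLR2I at 0.46, while POLR2D was at -0.03 and POLR2B at -0.12. The summed level of TE7 over WT was then 1.413 in TPM. Of the 8 transcripts, 4 (POLR2C, POLR2J, POLR2K and POLR2L) passed in edgeR, where 11.7% of all transcripts tested did. Its part in the comparison was not tested beyond leaving it out.

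**Figure D5:**
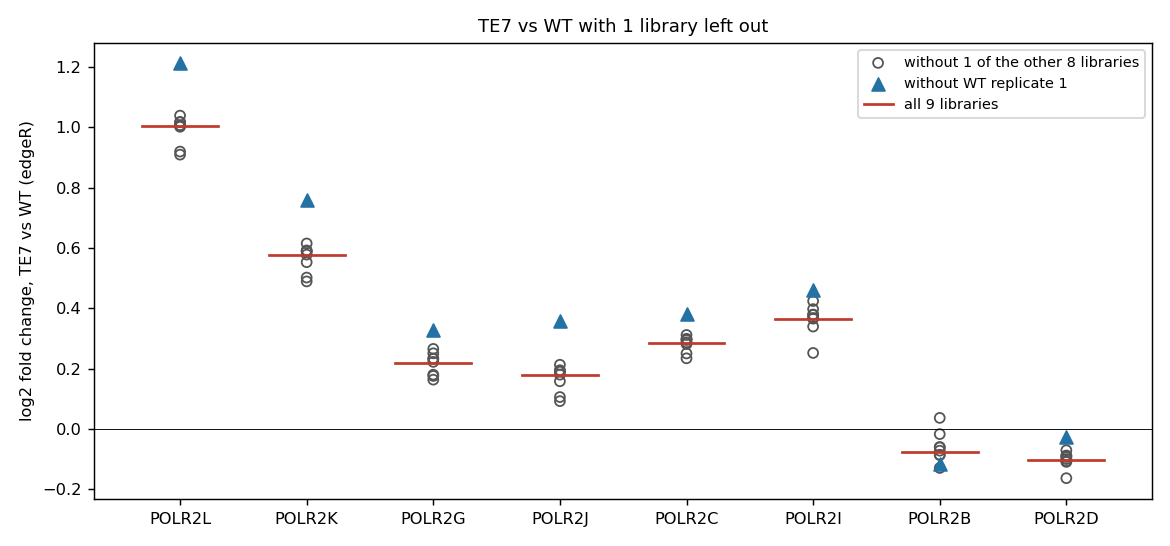
Log2 fold change between TE7 and WT for each transcript with all 9 libraries (red line), without WT replicate 1 (blue triangle) and without each of the other 8 libraries (grey circles). POLR2L stays between 0.91 and 1.21. POLR2B crosses 0, at 0.04 without WT replicate 3.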

How the data were processed

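Messenger RNA was measured in 9 libraries of HCT116 cells. Per the submitters' processing notes, cutadapt 2.3, Salmon 1.3.0 and the build hg19 were used; for the transcript set, library type and bias settings, nothing is given in the sources used here. The deposited tables give, per transcript, estimated counts and TPM as the authors' quantification wrote them. Estimated counts were rounded to whole numbers and tested with edgeR 4.0.16 (R 4.3.3, quasi-likelihood, TMM factors, filterByExpr defaults) in 1 fit of 3 groups without a replicate block, with contrasts for TE7 vs WT, TE7 vs TA7 and TA7 vs WT and Benjamini-Hochberg adjustment over 78478 transcripts at 0.05. CPM is scaled with the TMM factors. The filter kept 99.7% to 99.8% of estimated counts. Alternatives were DESeq2 1.42.0, limma 3.58.1 on log2(TPM + 1) and log2(TPM + 0.1), other scalings and filters, an effective length offset, and leaving out libraries. All 8 transcripts are named. The members and lists were chosen with earlier results of these data known. The fit was tested on simulated data, with 50 transcripts of at least 5 CPM changed in TE7 at each size. For TE7 vs WT it recovered 0% of 1.5-fold, 14% of 2-fold, 64% of 4-fold and 88% of 8-fold changes. For TE7 vs TA7 it recovered 4% of 1.5-fold and 14% of 2-fold changes. Few of the 72564 simulated transcripts were changed, whereas 9.40% were called between TE7 and WT in the data. The adjusted threshold was thus stricter in the simulation, and these rates are not the recovery in the data. Changes of the size fitted for most subunit transcripts may still have been missed. The tables pair no identifier with a gene name, so planned lists of other genes and cell markers were not used here. Promoter sequences are from RefSeq on GRCh38.p14, matched by symbol, and are shown for 4 of the 8 genes.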

Additional observations from a re-analysis of the deposited data

How the results depend on the processing

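POLR2L was higher in TE7 than in WT in all 20 alternatives, with log2 changes of 0.91 to 1.21. Counts of subunit transcripts called moved more. Between TE7 and WT, 2 were called, 1 without a filter, 1 with only the 2 groups in the fit, 5 with WT replicate 1 and TA7 replicate 1 both left out, and 5 in limma with either pseudocount; leaving out 1 library gave 1 to 4. Between TE7 and TA7, 1 was called, 3 with only these 2 groups, 4 without the 2 libraries together, 3 in limma with either pseudocount and 5 in DESeq2; leaving out 1 library gave 0 to 4. Between TA7 and WT 0 were called in all 20. The cause of these shifts was not tested.

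Over all transcripts, 9.4% were called between TE7 and WT, 3.06% without a filter and 21.1% with at least 1 CPM in 3 libraries. The share was 6.96% with only the 2 groups and 11.9% without the 2 libraries together. It was 24.4% and 23.8% in limma (pseudocounts 1 and 0.1), 20.2% in DESeq2, and 3.71% to 11.7% without 1 library. Between TE7 and TA7, 3.07% were called, 0.787% without a filter, 9.82% at 1 CPM, 6.53% with only the 2 groups, 6.04% without the 2 libraries together, 11.7% and 11.6% in limma and 13.4% in DESeq2, and 0.354% to 5.63% without 1 library. Between TA7 and WT, 0.0612% were called, 0.0255% without a filter, 0.219% at 1 CPM, 0.0% with only the 2 groups, 0.108% without the 2 libraries together, 0.282% and 0.316% in limma and 2.79% in DESeq2, and 0.00591% to 0.187% without 1 library.

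With the replicate number as a block, 2, 1 and 0 subunit transcripts were called in TE7 vs WT, TE7 vs TA7 and TA7 vs WT, as without it, and 6.77%, 1.4% and 0.0% of all transcripts. The numbers were not taken as pairing. Deviations of same-numbered libraries correlated at -0.096 to 0.29, and those of differently numbered libraries at -0.302 to 0.129. The highest correlations were between same-numbered libraries, but not every library correlated best with its own number.

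Sign changes concerned uncalled log2 changes when 1 library was left out. POLR2B in TE7 vs WT ranged over these fits between -0.129 and 0.037, the upper value without WT replicate 3. In TA7 vs WT the ranges were -0.0157 to 0.138 for POLR2C, -0.0429 to 0.101 for POLR2D, -0.208 to 0.00833 for POLR2I and -0.0561 to 0.253 for POLR2L. Single values on the other side of 0 were -0.00122 for POLR2C without TA7 replicate 1 and -0.046 for POLR2L without WT replicate 2. The summed level of TE7 over WT was 1.271 in CPM and 1.365 in TPM. With 3 libraries a group, POLR2I, at 745 to 1218 estimated reads, had the least depth of the 8.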

Other observations

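The profiles of the 8 transcripts over the 9 libraries, as log2(CPM + 0.5) centred on each transcript's mean, were compared by their root mean square difference. The nearest pair was POLR2C and POLR2G, at 0.0767, followed by POLR2I and POLR2J at 0.125 and by POLR2B and POLR2D at 0.136. Within the list, POLR2L had no near neighbour: the closest was POLR2K at 0.27, and the farthest was POLR2B at 0.591. Its own profile was not compared with transcripts outside the list. Of 19812 other transcripts of at least 5 CPM, the nearest to the mean profile of the 8 were ENST00000251968.4_3, at 0.0227 with 1534 bases, and ENST00000358368.5_3, at 0.0257 with 2647 bases. The median of these transcripts was 0.267. The points share libraries and depth, so these values are descriptions.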
